A study of Mus musculus with 6 samples.

Results

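Mitochondria make a small set of their own proteins on their own ribosomes, and every protein of those ribosomes is encoded in the nucleus, translated in the cytosol and carried into the organelle. The mRNAs examined here encode the mitochondrial ribosomal proteins of the large (Mrpl) and small (Mrps) subunit and the translocases of the outer (Tomm) and inner (Timm) mitochondrial membrane, which thread such proteins through the membranes. Members were taken by gene symbol: all probe sets whose only annotated symbol is Mrpl, Mrps, Timm or Tomm followed by a number and its letter suffix, with Timm22 left out. This gave 98 genes with 203 probe sets, of 18193 genes on the array, and 96 of them passed the detection filter.

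The IP group held 3 samples of RNA bound to tagged ribosomes, purified by translating ribosome affinity purification (TRAP) from mice of the BAC transgenic Slc6a4 JD60 line, in which the regulatory region of Slc6a4, the serotonin transporter gene, directs the tag to serotonin neurons. The unbound group held 3 samples of RNA from the remaining lysate of the same replicates, which stands for the whole tissue. All samples came from dissected midbrain and brainstem without cerebellum, and each pooled 5 adult mice of both sexes, 6 to 12 weeks old, on a mixed FVB and c57/bl6j background. Every animal in both groups thus carried the transgene, and all came from 1 transgenic line. Each of the 6 Affymetrix arrays gave 45101 log2 expression values. The comparison addresses which mRNAs the tagged ribosomes carried more or less of than the surrounding tissue. The groups differ in cell type and in ribosome binding together, and the design cannot tell these apart. Nor can more cells of a type and more RNA per cell be told apart.

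Arrays correlated over their probe sets at 0.996 to 0.999 within IP (Pearson's r), and at 0.924 to 0.932 across the groups. The labelled cell type was borne out by its markers: all 10 serotonin neuron markers were higher in IP. Tph2 lay at 15.16 ± 0.14 in IP and 9.35 ± 0.17 in unbound RNA (log2, SD, n = 3 each). Slc6a4, whose own regulatory region directs the tag, lay at 14.20 ± 0.12 in IP and 9.05 ± 0.07 in unbound RNA. All 8 astrocyte, all 7 oligodendrocyte and all 8 tested markers of other neurons were lower. Summed over a list, on the log2 scale, astrocyte markers lay at 11.1 to 11.3 in IP, against 14.0 to 14.6 in unbound RNA. Oligodendrocyte markers lay at 14.0 to 14.6 in IP, against 16.1 to 16.4 in unbound RNA, and those of other neurons at 11.4 to 12.0 in IP, against 14.0 to 14.5 in unbound RNA. Microglial markers lay at 7.55 to 7.57 in IP, against 10.6 to 10.8 in unbound RNA. Among microglial markers 4 of 5 tested were lower and 1 was higher, and all 3 tested endothelial markers were lower, every one of the 6 on the array lying under the detection limit in IP. Under the limit on every IP array were 5 of 8 astrocyte markers (Aldh1l1 and Sox9 among them), 2 of 7 oligodendrocyte markers (Olig2 and Myrf), 4 of 7 microglial markers and 3 of 9 markers of other neurons (Th, Chat and Slc6a2). Others stayed well above it in IP, such as Gja1 of astrocytes at 10.95, against 13.76 in unbound RNA, Mbp of myelin at 13.63, against 15.30, and Gad1 of GABA neurons at 10.71, against 12.97. The part these other cell types have in the results below was not tested.

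Most transcripts of the mitochondrial ribosome and of mitochondrial import had a log2 change between IP and unbound RNA above the median of all tested genes, and under the poly-A scaling described below none was called higher. Of the 96 tested members, 41 (42.7%) were called higher in IP (limma, an adjusted p under 0.05 by Benjamini-Hochberg over all tested genes, and a change of 2-fold or more), where 10.4% of the 10581 tested genes were. Only 2 members, Timm21 and Timm44, fell, where 41.1% of all tested genes fell. The members had a median log2 change (IP minus unbound) of 0.86, which is 1.82-fold, and all tested genes had a median of -0.65, which left the members' median 1.51 above it. All but 3 members (93 of 96) lay above the median of all tested genes, the exceptions being Mrps31, Timm21 and Timm44. The median member lay above 87.5% of all tested genes, 70 members lay above the upper quartile, a log2 change of 0.26, and 1 lay below the lower quartile of -1.77.

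The sign of a change depends on how the separately normalised groups are scaled to each other. The values here follow the submitters' recommended scaling to the biotinylated hybridisation controls, which added -0.23 to every IP value. Under it 78 members had a positive change, against 84 with no scaling, 87 after quantile normalisation, and 93 or 94 with arrays centred on the median of expressed or of all probe sets. Scaling to the poly-A spike controls, which added -2.59 with an SD of 1.08 over the 27 controls, left 2 positive members and called 76 lower and none higher. That scaling moved the median of all tested genes to -3.06 as well, and the members' median then lay 1.56 above it. Over all scalings tried, the distance to the median of all tested genes was 1.10 to 1.56. Every rise and fall named below is under the biotin scaling, and under the poly-A scaling no member was called higher.

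**Figure D1:**
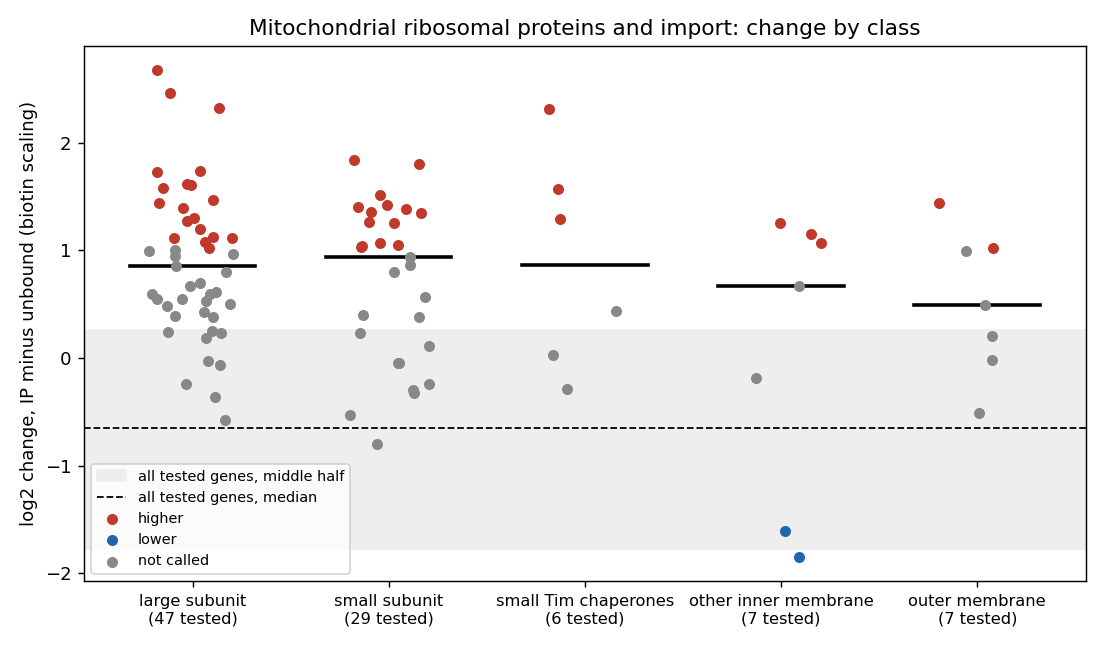
Log2 change (IP minus unbound, biotin scaling) of the 96 tested members by class, 1 point per gene coloured by its call, with class medians as bars and the median and middle 50% of all 10581 tested genes as a dashed line and a grey band. Most members sit above the dashed line at -0.65, and the 2 lower genes are both of the inner membrane class; under the poly-A scaling no member is called higher and 76 are called lower.

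The filter fixed no member's direction. All 96 tested members reached the detection limit, a log2 value of 5, on all 6 arrays. The other 2 members, Timm8a2 and Tomm20l, lay at or near the floor of about 2 on every array, at 1.98 and 1.99 in IP and 2.17 in unbound RNA, and were not tested. The IP and unbound values of 70 members did not overlap with IP above (23.9% of all tested genes), and those of 11 did not overlap with IP below (59.1% of all tested genes). Another 30 members had a positive change that passed the adjusted p but stayed under 2-fold, 8 had such a negative change, and 15 missed the adjusted p. Mrpl51, Mrpl1 and Tomm7 missed the 2-fold limit narrowly, with log2 changes of 1.00, 0.99 and 1.00. Within 0.1 above the limit lay 8 of the 41 higher members. Leaving out each array in turn ended the call of 11 of the 41, whose changes were at most 1.13, and 30 kept it each time.

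The promoters of the 3 members with the largest changes that have an entry in RefSeq (assembly GRCm38.p6), and that of Timm44, the member with the lowest change, are printed to show the sequences from which these mRNAs start, 250 bases before and 50 after the annotated start, 5′ to 3′ on the gene's strand. Capitals mark matches to motifs of factors known to act on nuclear genes for mitochondria: CCGGAAG, bound by ETS factors such as GABP, GCGCA and GCGC with any 1 base between them, bound by NRF1, and ATGGCGG, bound by YY1, each searched on both strands. Mrpl43 lies on the minus strand at chr19:45006393-45006692, Mrpl33 on the plus strand at chr5:31613701-31614000, Timm8b on the plus strand at chr9:50603651-50603950 and Timm44 on the minus strand at chr8:4275856-4276155.
Mrpl43: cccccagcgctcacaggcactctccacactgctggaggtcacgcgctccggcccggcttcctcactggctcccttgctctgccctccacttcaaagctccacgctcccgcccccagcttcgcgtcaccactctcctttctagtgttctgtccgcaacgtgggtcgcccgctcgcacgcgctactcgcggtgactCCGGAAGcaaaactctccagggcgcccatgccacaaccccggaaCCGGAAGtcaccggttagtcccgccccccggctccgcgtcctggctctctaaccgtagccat
Mrpl33: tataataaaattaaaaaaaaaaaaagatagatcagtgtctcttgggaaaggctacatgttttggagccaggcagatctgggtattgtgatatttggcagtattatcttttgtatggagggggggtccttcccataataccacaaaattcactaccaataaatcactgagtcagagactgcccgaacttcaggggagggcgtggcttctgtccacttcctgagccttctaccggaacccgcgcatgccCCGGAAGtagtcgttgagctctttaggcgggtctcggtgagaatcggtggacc
Timm8b: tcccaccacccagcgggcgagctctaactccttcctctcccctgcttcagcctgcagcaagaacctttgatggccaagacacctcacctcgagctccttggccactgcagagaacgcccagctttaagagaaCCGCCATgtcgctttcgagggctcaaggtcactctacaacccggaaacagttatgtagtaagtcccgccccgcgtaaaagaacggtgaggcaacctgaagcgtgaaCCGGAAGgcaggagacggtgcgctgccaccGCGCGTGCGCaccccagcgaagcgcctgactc
Timm44: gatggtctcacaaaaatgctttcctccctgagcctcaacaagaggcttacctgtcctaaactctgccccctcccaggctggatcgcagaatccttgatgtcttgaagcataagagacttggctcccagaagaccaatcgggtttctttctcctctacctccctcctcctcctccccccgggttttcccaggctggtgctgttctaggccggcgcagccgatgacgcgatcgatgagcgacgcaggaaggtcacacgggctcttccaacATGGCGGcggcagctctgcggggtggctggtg
The Mrpl43 window holds 2 ETS matches and that of Mrpl33 holds 1 beside the start site. The Timm8b window holds 1 match to each motif, and the Timm44 window holds 1 YY1 match just past the start and none of the others.

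Promoter windows were found for 84 of the 96 tested members, 91 windows in all, since some genes have several annotated starts. The ETS motif occurred in 34 of them (37.4%), beside 16.8% of 11248 windows of tested genes and 8.86% of all 32851 windows. The YY1 motif occurred in 16.48%, beside 7.70% of windows of tested genes and 4.05% of all windows. The NRF1 motif occurred in 15.4%, beside 10.2% and 4.60%. A GC box (GGGCGGG) was found in 44.0%, beside 46.4% and 25.6%, and a TATA box (TATAAA) in 6.59%, beside 6.997% and 13.6%. Unlike the 4 printed windows, 39 of the 91 member windows held none of the ETS, NRF1 and YY1 motifs. Matches of different motifs overlapped in 1 member window. Members with 1 window and an ETS match had a median log2 change of 1.03 (15 of 30 higher), and those without one 0.82 (22 of 50 higher). Members with a YY1 match had a median of 0.23 (4 of 15 higher), and those without one 1.02 (33 of 65 higher). For the NRF1 motif the medians were 1.03 with a match (7 of 14 higher) and 0.96 without (30 of 66 higher). For the GC box they were 1.02 with (17 of 33 higher) and 0.70 without (20 of 47 higher). For the TATA box they were 1.03 with (3 of 5 higher) and 0.93 without (34 of 75 higher). These shares and medians are descriptions of letters in a window and were not tested.

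In the large subunit 19 of 47 members rose, none fell and 42 had a positive change, with a median of 0.85. The largest changes were those of Mrpl54, Mrpl43 and Mrpl33, proteins built into the large subunit. Mrpl54 measured 8.43, 8.44 and 8.43 in IP, against 5.78, 5.65 and 5.86 in unbound RNA. It was thus 6.37-fold higher in IP (log2 change 2.67 ± 0.08 SE, adjusted p = 1.32e-06). Of all tested genes, 98.6% had a lower signed log2 change, those that fell included. Mrpl43 measured 12.09, 12.33 and 12.33 in IP, against 9.68, 9.81 and 9.88 in unbound RNA, a 5.51-fold rise (adjusted p = 4.20e-06). Mrpl33 measured 12.15, 12.16 and 12.15 in IP, against 9.84, 9.83 and 9.83 in unbound RNA, and was 5.00-fold higher (log2 change 2.32 ± 0.07 SE, adjusted p = 9.95e-07). In all of them the IP arrays lay more than 2 log2 units above every unbound array.

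Mrpl14, the counterpart of a bacterial protein at the face where the subunits join, followed with 7.80, 7.72 and 7.72 in IP, against 5.78, 5.99 and 6.26 in unbound RNA (3.34-fold, adjusted p = 4.97e-05). Mrpl20 measured 11.40, 12.09 and 11.99 in IP, against 9.90, 10.20 and 10.20 in unbound RNA (3.32-fold, adjusted p = 3.73e-04). Mrpl12, which is also known to bind the mitochondrial RNA polymerase, rose by 1.47 (2.77-fold). Mrpl58, a release-factor-like peptidyl-tRNA hydrolase that became a subunit protein, rose by 1.11 and had the same value, 11.51, on all 3 IP arrays. The other higher members of the large subunit were Mrpl57 (1.61), Mrpl36 (1.60), Mrpl32 (1.57), Mrpl34 (1.44), Mrpl55 (1.39), Mrpl23 (1.30), Mrpl27 (1.27), Mrpl17 (1.19), Mrpl38 (1.13), Mrpl41 (1.11), Mrpl49 (1.07) and Mrpl28 (1.02). The calls of Mrpl38 and Mrpl58 were lost without unbound replicate 1, that of Mrpl41 without IP replicate 3, that of Mrpl49 without IP replicate 1, and that of Mrpl28 without unbound replicate 2 or 3.

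At the other end of the large subunit, Mrpl16 measured 9.52, 9.19 and 9.24 in IP, against 10.15, 9.65 and 9.88 in unbound RNA. Its log2 change of -0.57 ± 0.16 SE passed the adjusted p (0.0162) but not the 2-fold limit, and the groups did not overlap. Mrpl3 had a change of -0.36 (adjusted p = 0.00532), Mrpl35 one of -0.24 (adjusted p = 0.188), Mrpl9 one of -0.07 and Mrpl4 one of -0.03. All 5 still lay above the median of all tested genes, by 0.08 to 0.62, and their sign turned positive when arrays were centred on either median.

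In the small subunit 14 of 29 members rose, none fell and 22 had a positive change, with a median of 0.93. Mrps34, a mitochondria-specific protein of this subunit, measured 12.14, 12.19 and 12.19 in IP, against 10.31, 10.30 and 10.41 in unbound RNA (3.57-fold, log2 change 1.83 ± 0.07 SE, adjusted p = 3.20e-06). Mrps12, the counterpart of the bacterial decoding-site protein S12, measured 10.995, 11.11 and 11.11 in IP, against 9.26, 9.30 and 9.28 in unbound RNA (3.47-fold, adjusted p = 3.72e-06). Mrps26 rose by 1.52 and Mrps18c by 1.42. In these 4 genes every IP array lay above every unbound array by more than 1 log2 unit. Next came Mrps14 (1.40), Mrps24 (1.38), Mrps7 (1.36), Mrps16 (1.34), Mrps15 (1.26), Mrps18a (1.25), Mrps33 (1.07), Mrps10 (1.05), Mrps25 (1.04) and Mrps17 (1.03). The call of Mrps10 was lost without IP replicate 1 or unbound replicate 2, that of Mrps25 without IP replicate 1, that of Mrps33 without unbound replicate 2, and that of Mrps17 without IP replicate 2, IP replicate 3 or unbound replicate 1.

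Mrps31 had the lowest change among the tested Mrpl and Mrps members. It measured 8.01, 8.13 and 8.26 in IP, against 9.01, 8.99 and 8.80 in unbound RNA (log2 change -0.80 ± 0.10 SE, adjusted p = 5.63e-04), without overlap but under 2-fold. Mrps2 stood at 10.36 on each IP array, against 11.18, 10.76 and 10.73 in unbound RNA (-0.53, adjusted p = 0.0125). Mrps5 (-0.33) and Mrps22 (-0.29) also lay lower on every IP array. Mrps36, now better known as a subunit of the 2-oxoglutarate dehydrogenase complex, was at -0.04 with overlapping groups. Of the small subunit members with a negative change, only Mrps31 lay below the median of all tested genes, and it alone kept a negative sign with arrays centred on the median of expressed probe sets.

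**Figure D2:**
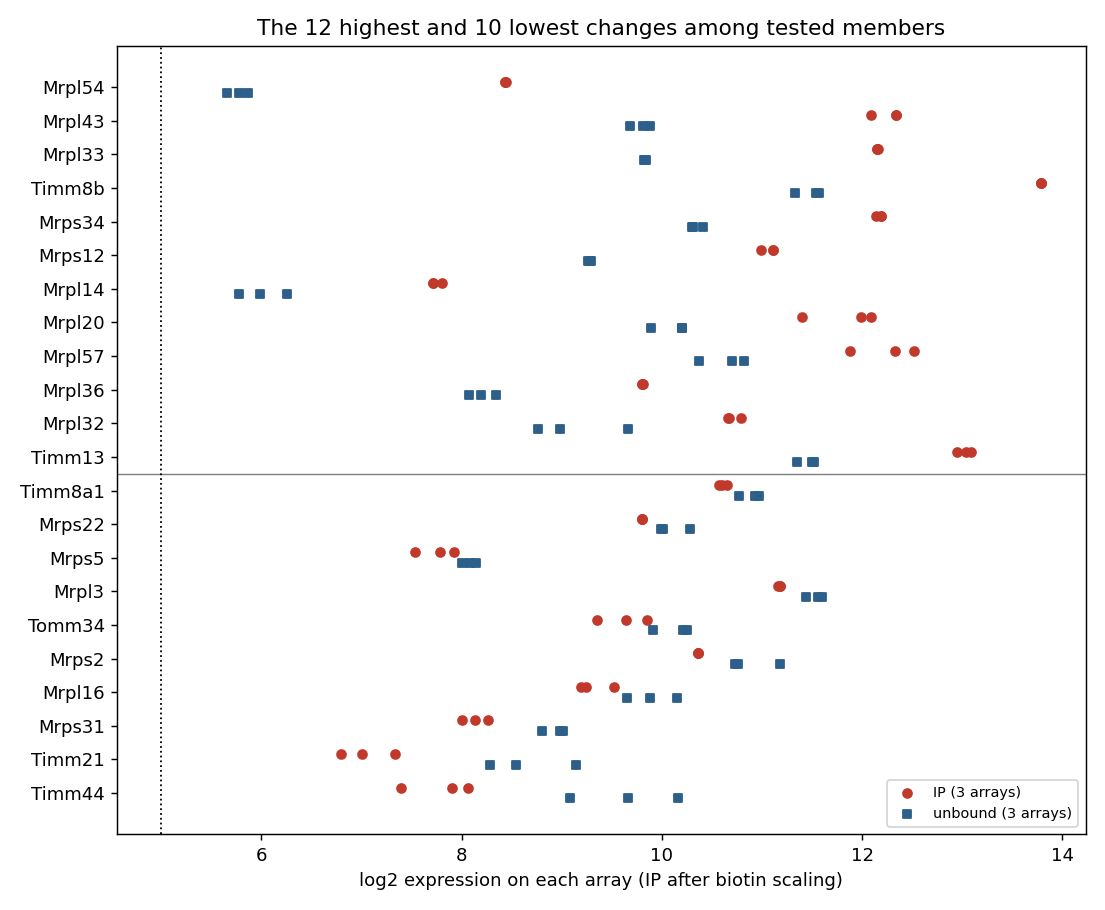
Log2 expression on each array for the 12 members with the highest and the 10 with the lowest change (biotin scaling), red points for the 3 IP arrays and blue squares for the 3 unbound arrays, with the detection limit of 5 as a dotted line. IP and unbound values do not overlap in any of the 22 genes. The group means differ by under 1 log2 unit in all of the lower 10 except Timm21 and Timm44. Under the poly-A scaling Mrpl54 and Mrpl43 alone keep a positive change.

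Mitochondrial ribosomal proteins divide into those with bacterial counterparts, which by convention carry the lower numbers (up to Mrpl36 and Mrps21), and those found only in mitochondria. Of 43 members with bacterial counterparts 20 rose (median 0.96), and of 33 mitochondria-specific members 13 rose (median 0.80). The difference between these classes was not tested. Genes for 6 proteins outside the symbol pattern that are found in or close to the mitochondrial ribosome gave 4 higher and 1 lower, with a median of 1.41. Gadd45gip1, a large subunit protein despite its name, rose by 1.95 and Slirp, an RNA-binding partner of Lrpprc rather than a core ribosomal protein, by 1.72. Chchd1, a small subunit protein, rose by 1.67 and Ndufab1, an acyl carrier protein better known from respiratory complex I, by 1.15. Dap3, which binds GTP in the small subunit, had a change of 0.01, and Ptcd3 fell by 1.19.

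Proteins enter mitochondria through the TOM complex of the outer membrane. Tomm22, its central receptor, measured 11.87, 11.82 and 11.64 in IP, against 10.30, 10.26 and 10.45 in unbound RNA (2.71-fold, log2 change 1.44 ± 0.10 SE, adjusted p = 3.14e-05). Tomm40, the pore itself, measured 8.12, 8.12 and 7.87 in IP, against 6.69, 7.17 and 7.18 in unbound RNA (2.03-fold, adjusted p = 0.00142), a call lost without IP replicate 1, IP replicate 2 or unbound replicate 1. Both were higher on every IP array. Tomm7, a small subunit of the complex, was at 1.00 and Tomm20, the receptor for presequences, at 0.49 (14.67, 14.46 and 14.43 in IP, against 14.29, 13.77 and 14.03 in unbound RNA, adjusted p = 0.0245). Neither was called by its brightest probe set, though both had dimmer ones called higher. Those of Tomm7 changed by 1.40 and 1.24, and its remaining one, at 0.50, was not called. Tomm40l, a paralog of the pore, was at 0.20 and Tomm70a, the receptor for carrier precursors, at -0.02, each with overlapping groups. A dimmer probe set of Tomm40l changed by 0.58 and was not called. Tomm34, a cytosolic co-chaperone and not a part of the pore complex, was at -0.51 (adjusted p = 0.0265), lower on all 3 IP arrays. In the outer membrane class 2 of 7 rose, none fell and the median was 0.49.

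The small Tim proteins ferry hydrophobic precursors across the intermembrane space. Timm8b showed the largest change among import genes, at 13.79 on each IP array, against 11.57, 11.33 and 11.54 in unbound RNA (4.97-fold, log2 change 2.31 ± 0.09 SE, adjusted p = 3.13e-06). Timm13, the partner with which Tim8 proteins assemble, measured 12.95, 13.04 and 13.09 in IP, against 11.52, 11.35 and 11.503 in unbound RNA (2.97-fold, adjusted p = 1.19e-05). Timm10b, which docks these chaperones at the inner membrane, measured 10.72, 10.55 and 10.52 in IP, against 9.63, 9.24 and 9.02 in unbound RNA (2.45-fold, adjusted p = 5.57e-04). These 3 genes had IP values above all unbound values. Timm9 and Timm10, which form the main chaperone ring, were at 0.43 (adjusted p = 0.154) and 0.02 (adjusted p = 0.903) with overlapping groups. Timm8a1, the mouse counterpart of the gene mutated in human deafness-dystonia syndrome, measured 10.66, 10.60 and 10.57 in IP, against 10.94, 10.77 and 10.97 in unbound RNA, a change of -0.29 (adjusted p = 0.0215) that was not called.

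At the inner membrane, the TIM23 channel passes presequence proteins into the matrix. Timm17a measured 13.24, 12.80 and 13.00 in IP, against 11.82, 11.58 and 11.87 in unbound RNA (2.39-fold, adjusted p = 3.06e-04), and its X-linked paralog Timm17b 11.32, 11.95 and 11.93 in IP, against 10.37, 10.67 and 10.70 in unbound RNA (2.22-fold, adjusted p = 0.00211). Timm50, the receptor of the channel, rose by 1.07 (adjusted p = 0.00247), a call lost without IP replicate 1 or unbound replicate 2. Timm23, the other core subunit, was at 0.67 (adjusted p = 4.81e-04), higher on every IP array but under 2-fold. Timm29, a subunit of the carrier translocase, was at -0.18 (adjusted p = 0.0583).

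Timm44 and Timm21 ran the other way. Timm44, which anchors the matrix Hsp70 motor at the channel, measured 7.39, 7.91 and 8.06 in IP, against 9.08, 10.16 and 9.67 in unbound RNA (3.60-fold lower, log2 change -1.85 ± 0.31 SE, adjusted p = 0.00187). Timm21, which couples the channel to the outer membrane complex and to the respiratory chain, measured 7.34, 7.01 and 6.80 in IP, against 9.14, 8.54 and 8.28 in unbound RNA (3.05-fold lower, log2 change -1.61 ± 0.25 SE, adjusted p = 0.00141). Every IP array lay below every unbound array for both. They lay 1.20 and 0.96 below the median of all tested genes, and adding 1 value to every gene cannot change that. The call of Timm44 rests on 1 of its 3 tested probe sets: the others changed by -0.75 and -0.17 and were not called, the last of them above the median of all tested genes. With the mean of its probe sets the change of Timm44 less that median was -0.37, and that of Timm21 was -1.05.

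Paralogs and partners were compared by the difference of their log2 values within each array, which adding 1 value to every gene of a group cannot move. The separate normalisation of the groups can still shift genes of unlike brightness by unlike amounts. The pairs were not compared after quantile normalisation. Over the 9 pairs, an exact two-sided permutation test of 3 against 3 arrays cannot give a p under 0.1, and the smallest value after adjustment over the pairs was 0.129, so none of the pairs could pass. Timm8a1 minus Timm8b was -3.14, -3.19 and -3.22 in IP, against -0.64, -0.56 and -0.57 in unbound RNA. The shift was -2.60 ± 0.04 SE (exact permutation p = 0.1), and the groups did not overlap. Timm8b read 13.79 on all 3 IP arrays, so the spread within IP is that of Timm8a1 alone and the SE can be too small. Timm10 minus Timm10b shifted by -1.27 ± 0.14 SE and Tomm20 minus Tomm22 by -0.95 ± 0.16 SE, both without overlap between the groups. With the mean of each gene's probe sets the shift of Tomm20 minus Tomm22 was -0.56, and 1 dimmer probe set of Tomm20 changed by 2.18, more than Tomm22 did (1.44), so its size and sign depend on the probe set read. Tomm40 minus Tomm40l shifted by 0.82 ± 0.25 SE without overlap. That shift was 0.63 with the mean of each gene's probe sets and 0.59 without unbound replicate 1. Among the 3 Mrps18 paralogs, Mrps18b lagged behind Mrps18a (0.68 ± 0.17 SE for Mrps18a minus Mrps18b) and Mrps18c (-0.85 ± 0.24 SE for Mrps18b minus Mrps18c), while Mrps18a and Mrps18c overlapped (-0.16 ± 0.08 SE, exact permutation p = 0.2). Timm17a and Timm17b did not separate (0.10 ± 0.36 SE, exact permutation p = 0.9), which leaves room for a difference in either direction. Timm9 minus Timm10 shifted by 0.41 ± 0.20 SE, which was 0.25 without IP replicate 1 and turned to -1.07 with the mean of each gene's probe sets.

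**Figure D3:**
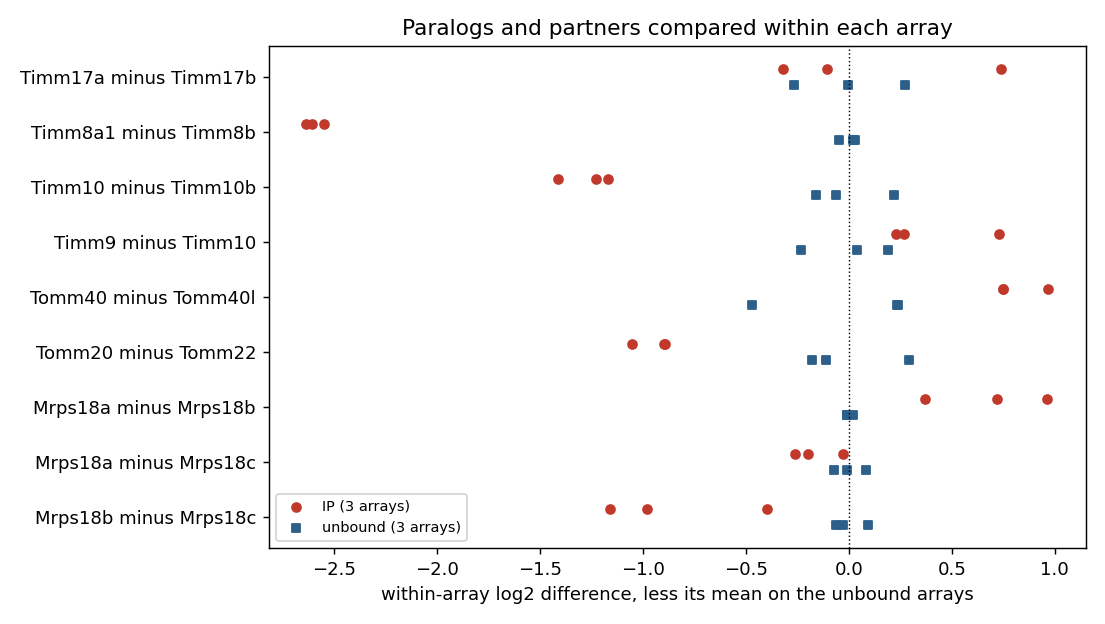
Within-array log2 difference between paralogs or partners, less its mean over the unbound arrays, with red points for the 3 IP arrays and blue squares for the 3 unbound arrays. The IP arrays of Timm8a1 minus Timm8b sit about 2.60 below the unbound arrays, while those of Timm17a minus Timm17b spread around them.

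Other genes of mitochondrial protein synthesis, taken from lists chosen with earlier results of these data known, are given next to the members, and their counts stand beside 10.4% higher and 41.1% lower among all tested genes. Of 14 mitochondrial translation factors 1 rose and 5 fell (median -0.66, beside -0.65 for all tested genes). Mtif3, an initiation factor, rose by 1.03. Guf1, an elongation factor of the EF4 kind, fell by a factor of at least 3.16, and Gfm2, a ribosome recycling factor, by at least 2.08. No IP array reached the detection limit for either, and the limit stands in for them in these bounds and in those below. Tufm, the main elongation factor, was at -0.99 and not called. None of 14 tested mitochondrial aminoacyl-tRNA synthetases and related enzymes rose and 2 fell, Pars2 and Aars2, at least 1.74-fold and 1.56-fold lower (median of the list -0.40).

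Factors that assemble the ribosome or modify its RNA split evenly around 0 under the biotin scaling, with 2 of 20 higher, 4 lower and a median of -0.07. That median lay 0.58 above that of all tested genes, and 16 of the 20 lay above the latter. Malsu1, an assembly factor that keeps the subunits apart, rose by 1.49 and Gtpbp10, an assembly GTPase, fell by 1.30. Mitochondrial transcription and replication gave 0 higher and 3 lower of 10 (30% lower, beside 41.1% of all tested genes), and its median of -0.35 lay 0.30 above that of all tested genes. Polg2, the accessory subunit of the mitochondrial DNA polymerase, fell by 1.58, and Mterf1a, a transcription termination factor, was at least 1.51-fold lower. Regulators known to act on nuclear genes for mitochondria gave 4 lower and 0 higher of 7 (median -1.95). Ppargc1b, a coactivator, was at least 8.81-fold lower, and Gabpa, the ETS-family subunit of GABP, fell by 3.07 to 5.90 ± 0.03 in IP, against 8.97 ± 0.39 in unbound RNA (SD, n = 3 each). Ppargc1a fell by 2.02 and Esrra by 1.95. The others tested were not called: Gabpb1, also of GABP, at 0.41, Pprc1 at -0.37 and Yy1 at -0.69. No unbound array reached the detection limit for Gabpb1. Nrf1 did not pass the detection filter and was not tested.

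Import genes outside the Timm and Tomm families had calls in both directions under the biotin scaling. Above the median of all tested genes lay 10 of 13 genes of the import motor and of precursor processing. The same held for 12 of 14 genes of outer membrane sorting, intermembrane space import and the cristae. Of 13 genes of the import motor and of precursor processing 3 rose and 1 fell (median -0.02). Hspe1, the small chaperonin of the matrix, rose by 1.56 and Xpnpep3, a processing peptidase, was at least 3.71-fold lower. Dnajc15 (1.54) and Pam16 (1.13), co-chaperones of the motor at the channel, rose, while Hspa9, the Hsp70 of that motor, was at -0.89 and not called. Of 14 genes of outer membrane sorting, intermembrane space import and the cristae 3 rose and 2 fell (median 0.46), with Mtch1, an outer membrane insertase, up by 2.10 and Mtx3, a metaxin, down by 2.12. None of 5 cytosolic chaperones was called in either direction (median -0.18).

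**Figure D4:**
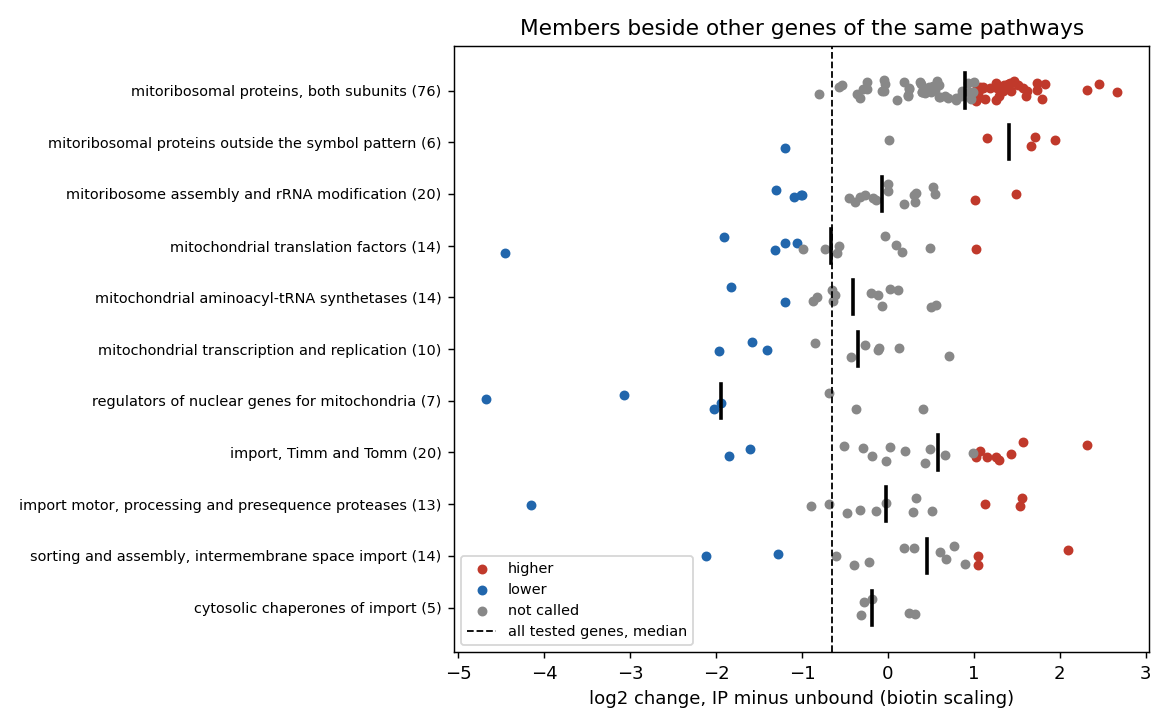
Log2 change (IP minus unbound, biotin scaling) of the members, as mitochondrial ribosomal proteins and as Timm and Tomm genes, and of other genes of the same pathways, 1 point per gene coloured by its call, with list medians as bars and numbers of tested genes in brackets. The medians of the ribosomal proteins (0.90) and of the Timm and Tomm genes (0.58) lie above that of translation factors (-0.66), which sits on the dashed median of all tested genes; under the poly-A scaling no member is called higher.

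For comparison, 42 tested cytosolic ribosomal protein genes had a median of 0.90 with 17 higher and 0 lower, and 72 tested subunits of oxidative phosphorylation a median of 0.49 with 20 higher and 2 lower. The 76 mitochondrial ribosomal proteins had a median of 0.90 with 33 higher and 0 lower. The differences between these lists were not tested.

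Members are mostly short genes, and among all tested genes the shorter ones had higher changes than the longer ones. The median annotated gene length, exons and introns together, was 7690.5 bp for members and 25775 bp for all tested genes with an annotation. In the shortest quartile of all tested genes (up to 10582 bp) the median change was 0.11 and 22.8% were called higher, against a median of -1.35 and 4.13% in the longest quartile. Of the 64 members in the shortest quartile 34 were higher, with a median of 1.05. The 24 members in the next quartile had 7 higher and a median of 0.51, beside -0.42 for all genes of that quartile. None of the 6 members in the next quartile and of the 2 in the longest was called, with medians of 0.39 and 0.28 beside -0.87 and -1.35 for all genes. Across genes, Spearman's rho between length and change was -0.33 over 10560 tested genes and -0.48 over the 96 members, given as a description, since genes on the same arrays are not independent. The part of gene length in the members' change was not tested.

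**Figure D5:**
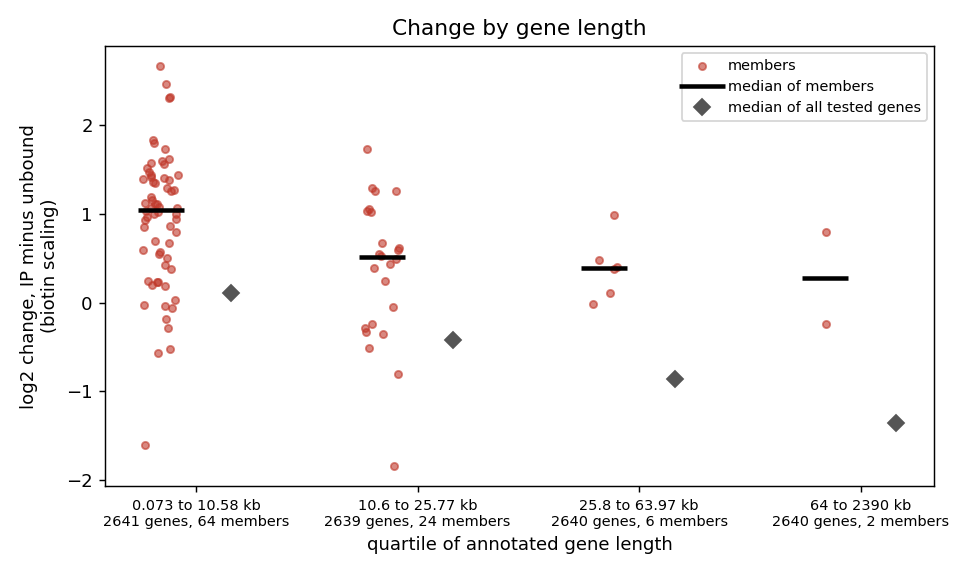
Log2 change (IP minus unbound, biotin scaling) by quartile of annotated gene length, red points and black bars for members and their median, grey diamonds for the median of all tested genes. The members' median lies above that of all tested genes in each quartile, 1.05 beside 0.11 in the shortest and 0.28 beside -1.35 in the longest, where there are 2 members; under the poly-A scaling no member is called higher.

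Probe sets of a member did not always tell the same story. Of 38 members with more than 1 tested probe set, 27 had changes of 1 sign throughout and in 11 the probe sets differed in sign. The widest range was that of Mrpl15, whose 6 probe sets ran from -4.05 to 0.66, with the brightest at 0.39. Tomm20 ran from -0.34 to 2.18 over 6 probe sets, of which 3 were called higher by themselves although the brightest was not. Mrpl57 was the only member called in opposite directions, higher by its brightest probe set (1.61) and lower by the other (-1.99). Mrps14 and Mrps26, both called higher, had dimmer probe sets at -0.61 and -0.91. Mrpl1 (-0.82 to 0.99), Mrpl48 (-1.89 to 0.48), Mrpl51 (-2.09 to 1.00), Tomm70a (-1.21 to 0.74), Mrps23 and Mrpl9 made up the rest. Of the 15 higher members with several tested probe sets, 8 were higher by every one. The probe sets that read the members were plain ones in 52 cases and ones of a type that can also match other transcripts of the gene or other genes in the rest (29 with the suffix a, 7 with s, 8 with x), and signals from near-identical copies of these genes cannot be told apart there.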

How the data were processed

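RNA was measured on 6 Affymetrix mouse arrays, 3 IP and 3 unbound, after two-cycle amplification of 20 ng of total RNA, per the labels. The authors made the deposited log2 values with GCRMA within each group, per the series' design text and the submitters' processing notes. No source used here names a GCRMA version. Array medians were 2.43 in IP, against 3.21 to 3.24 in unbound RNA. The same value on all 3 IP arrays was found for 20.1% of tested genes and 7.29% of tested members.

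The mean difference over the 18 biotinylated control probe sets (-0.23) was added to every IP value, as the design text recommends. Genes were named from the platform annotation: 34945 probe sets had 1 symbol, 932 more than 1, 9160 no symbol, and 64 were control probe sets. Among those with several, 7 include a symbol of the member pattern and were not used. RefSeq (GRCm38.p6) held the gene IDs of 34741 and changed 0 symbols. A gene was read by its brightest probe set and tested where at least 3 of 6 arrays reached log2 5. Groups were compared with limma 3.58.1 in R 4.3.3, with group as the single factor, and p-values of all 10581 genes were adjusted by Benjamini-Hochberg; a call needed an adjusted p under 0.05 and a 2-fold change. It was tested on simulated data.

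Each unbound sample's label names its replicate, so the numbers pair the samples. Deviations of same-numbered samples from their group means correlated at 0.27, 0.16 and 0.10 across genes. Differently numbered samples ranged from -0.25 to 0.21, and the highest of these, IP 3 with unbound 2, exceeded 2 of the 3 matched values, so the pairing rests on the labels. The labels call the IP samples biological replicates, each a pool of 5 mice, and p-values rest on the spread between the arrays' deposited values. Besides the members with 1 value on all 3 IP arrays, others had equal values on 2 of them, such as Mrpl43 with 12.3348 on IP replicates 2 and 3. The spread within IP can thus understate that between pools, and p-values can be too small. The number of arrays limits the precision.

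Members and lists were chosen with earlier results of these data known. Named genes were the 5 highest and 5 lowest Mrpl, the 4 highest and 4 lowest Mrps, every Timm, Tomm and higher member, the fixed pairs, and up to 2 called genes with the largest change per other list. Others were chosen after their values were seen. A planned pair with Tomm5 had no single-symbol probe set and was not analysed here.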

Additional observations from a re-analysis of the deposited data

How the results depend on the processing

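The count of members higher in IP (41) was 74 with arrays centred on the median of expressed probe sets, 79 on that of all probe sets, 0 with poly-A controls, 63 with every probe set tested by itself and 71 by the adjusted p alone. It was 51 with no scaling, 52 after quantile normalisation, 30 with the mean of a gene's probe sets, and 37 to 44 without 1 array. The count of members lower in IP (2) was 1 with the expressed median and with quantile normalisation, 0 with the median of all probe sets, 76 with poly-A controls, 8 with every probe set, 3 with the mean of probe sets and 10 by the adjusted p alone. The members' median above that of all tested genes (1.51) was 1.10 with quantile normalisation, 1.11 with the mean of probe sets, 1.08 with no filter, 1.40 with the filter at log2 7, 1.38 with every probe set and with identical values left out, and 1.47 to 1.57 without 1 array. The sign of Timm17a minus Timm17b (0.10) turned to -0.18 with the mean of probe sets and ranged over -0.21 to 0.32 without 1 array, and Timm9 minus Timm10 (0.41) turned to -1.07 with the mean of probe sets. The cause was not tested, except that shifts follow from the scalings' construction. Over all genes, 1104 were higher and 4354 lower (79.8% lower), against 71.4% lower with no scaling (1500 higher), 49.7% with quantile normalisation (2507 and 2479), 46.9% with the expressed median (2934 and 2596), 37.5% with the median of all probe sets (3671 and 2203), 99.5% with poly-A controls (48 and 9768), and 2330 higher by the adjusted p alone. With the replicate block, 41 members were higher and 2 lower, and the block changed no member's call. All 41 higher members were higher with every scaling except quantile normalisation (40) and poly-A controls (0), and 29 were with the mean of probe sets.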
